A study of Equus caballus with 15 samples.

Results

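CCL22, CCL17 and ENSECAG00000031387 are 3 genes that follow each other on horse chromosome 3, and their RNA was compared between 5 conditions of equine monocyte-derived macrophages. They were chosen by name and position out of 16932 listed genes, with earlier results of the same libraries known, in which the levels with PRP lysate and ACS stood out. The values of the 3 genes with PRP lysate and ACS are therefore given as a description, without a test. Mononuclear cells from the blood of 2 horses were grown into macrophages for 5 days with human M-CSF at 30 ng/ml. Untreated macrophages got no further stimulus, and macrophages of the IL-1ß condition got IL-1ß at 10 ng/ml. In the other 3 conditions the same dose of IL-1ß was given together with an orthobiologic therapy (OT) that made up 25% of the medium. MSC-CM is medium conditioned by mesenchymal stromal cells, PRP lysate is made by lysing platelet rich plasma, and ACS (autologous conditioned serum) is serum incubated to enrich it in cytokine antagonists. Treatment lasted 24 h. The methods describe a wash and further culture before RNA was collected, which the sample descriptions do not mention.

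There were 3 libraries per condition, 15 in all. Per the methods, the same 3 horses donated every OT, and other horses gave the blood for the macrophages. ACS was thus not autologous to the macrophages it was given to. Libraries of an OT vary by its donor, while the untreated and the IL-1ß libraries are described by the study as technical replicates. The labels do not say which libraries of different OTs share a donor, so OTs are compared without pairing. Tests between untreated and IL-1ß libraries do not measure the spread between macrophage donors. Their standard error is pooled over all 5 conditions, OT libraries included.

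CCL17 and CCL22 are small secreted chemokines that bind the same receptor, CCR4, and attract T helper 2 cells, regulatory T cells and other CCR4+ cells. Dendritic cells and macrophages make them, above all under IL-4, IL-13, TSLP or GM-CSF, and they count among the markers of alternatively activated macrophages. In mammals the gene for fractalkine, CX3CL1, commonly lies between them. It encodes a membrane-bound chemokine that is shed by ADAM10 and ADAM17 and binds CX3CR1.

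CCL22 (ENSECAG00000040031) was listed at chr3:10308740-10313566 of EquCab3.0, ENSECAG00000031387 at chr3:10321313-10332373, and CCL17 (ENSECAG00000000054) at chr3:10345976-10357681. From the first to the last base the 3 genes spanned 48942 bp, with 7746 bp between CCL22 and ENSECAG00000031387 and 13602 bp between the latter and CCL17. The values carried no symbol for ENSECAG00000031387 and no row named CX3CL1. RefSeq annotation of another horse assembly has CX3CL1 between CCL22 and CCL17. The text of the study gives CX3CL1 as a name for this identifier. The files used here do not settle whether it is this gene, so it is called by its identifier. The last 165 bp of CCL17 overlapped CIAPIN1, a gene of iron-sulphur protein assembly. The strand setting of the counting was not stated, so reads in this stretch may belong to either gene.

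Depth ranged from 28410735 to 47894071 reads per library. Even the lowest value of ENSECAG00000031387 rested on 117 reads, so counting error was small beside the spread between libraries. In a principal component analysis 3 libraries stood apart on the first component, which held 55.4% of the variance. They were IL-1ß replicate 3 at 103, PRP lysate replicate 1 at 51.7 and MSC-CM replicate 1 at 20.7, while the other libraries lay between -26.6 and 8.15. Values without these 3 libraries are given where they bear on a result. Macrophage markers were present, with CSF1R, the M-CSF receptor, at 182 to 469 CPM (counts scaled to a common total per library) as condition means, whereas CD14 was low at 1.75 to 3.46 CPM. All 10 T cell markers looked at were also present, and summed to between 1072 and 1965 CPM per library. RNA of lymphocytes was thus part of these cultures. In such bulk samples, fewer cells of a type and less RNA per cell cannot be told apart. The median of all tested genes was shifted against IL-1ß alone by 0.16 (log2) with MSC-CM, 0.13 with ACS and 0.11 with PRP lysate. These shifts were near 0 with RLE size factors, and changes of the 3 genes are also given relative to them.

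CCL22 was highest with ACS and next highest with PRP lysate. It stood at 103, 132 and 213 CPM in the untreated libraries (replicates 1 to 3), and at 83.2, 114 and 55.5 CPM with IL-1ß alone. With MSC-CM it stood at 117, 157 and 89.0 CPM. With PRP lysate the values were 558, 551 and 460.5 CPM, and with ACS they were 836, 781 and 901 CPM. The ranges of the first 3 conditions overlapped, all PRP lysate libraries lay above them, and all ACS libraries lay above PRP lysate. The means were 149 ± 56.9 (SD, n = 3) CPM in untreated macrophages, 84.3 ± 29.4 with IL-1ß, and 121 ± 34.4 with MSC-CM, against 839 ± 60.1 with ACS and 523 ± 54.4 with PRP lysate. The coefficient of variation was 7.16% with ACS and 10.4% with PRP lysate, against 28.4% to 38.1% in the conditions with low values.

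CCL17 was high with both blood products, and its PRP lysate and ACS libraries overlapped. It stood at 152, 113 and 341 CPM in untreated macrophages and at 57.5, 93.9 and 164 CPM with IL-1ß. With MSC-CM the values were 113, 106 and 72.7 CPM. The low conditions overlapped here as well, and untreated replicate 3 was the highest library among them. With PRP lysate CCL17 stood at 906, 400.4 and 373 CPM, and with ACS at 743, 634 and 449 CPM. PRP lysate replicate 1, one of the libraries that stand apart, was more than double its fellow libraries. The means were 202 ± 122 (SD, n = 3) CPM untreated, 105 ± 54.0 with IL-1ß and 97.3 ± 21.7 with MSC-CM, against 609 ± 149 with ACS and 560.0 ± 300.2 with PRP lysate.

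ENSECAG00000031387 followed the order of CCL17 on a scale of few CPM. In untreated macrophages it stood at 3.78, 4.60 and 8.69 CPM, with IL-1ß at 3.75, 3.90 and 6.12 CPM, and with MSC-CM at 2.65, 4.81 and 2.81 CPM. With PRP lysate the values were 31.3, 19.1 and 13.9 CPM, and with ACS they were 33.9, 25.5 and 16.98 CPM. Every library with a blood product was above every library of the other 3 conditions, and PRP lysate and ACS overlapped. The means were 5.69 ± 2.63 (SD, n = 3) CPM untreated, 4.59 ± 1.33 with IL-1ß and 3.42 ± 1.203 with MSC-CM, against 25.4 ± 8.46 with ACS and 21.4 ± 8.92 with PRP lysate.

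**Figure D1:**
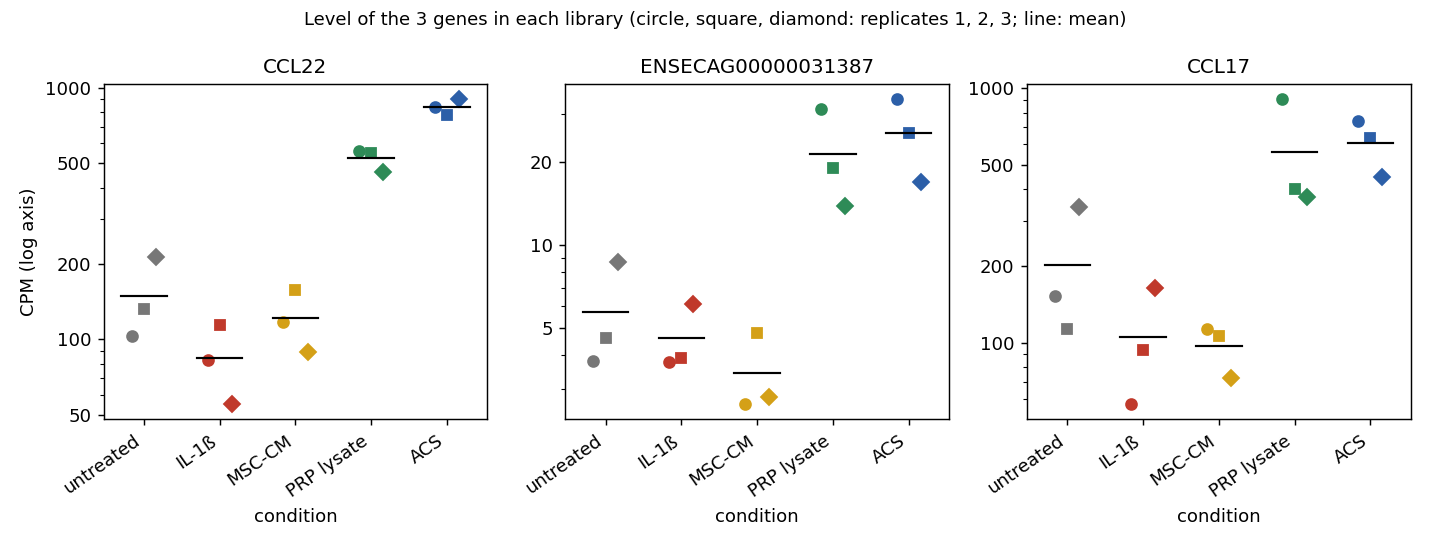
CPM of CCL22, ENSECAG00000031387 and CCL17 in each of the 15 libraries on a log axis, by condition, with replicates 1 to 3 as circle, square and diamond and the mean as a line. All PRP lysate and ACS libraries lie above all others in each panel, and the ACS libraries lie above PRP lysate only for CCL22.

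Against IL-1ß alone, mean CCL22 was 9.95-fold higher with ACS, CCL17 5.80-fold and ENSECAG00000031387 5.54-fold. On the log2(CPM + 1) scale the differences were 3.36 ± 0.29 (SE) for CCL22, 2.62 ± 0.46 for CCL17 and 2.22 ± 0.35 for ENSECAG00000031387. Ordered by this difference they took places 1, 4 and 15 among 11628 tested genes. Relative to the median of all tested genes the differences were 3.23, 2.49 and 2.08. In all 3 genes each ACS library was above each IL-1ß library, as in 14.9% of tested genes. This share belongs to the contrast the genes were chosen on, and nothing is read from it. Without the libraries that stand apart the differences were 3.09, 3.00 and 2.40 in the same order.

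With PRP lysate, mean CCL22 was 6.20-fold the IL-1ß level, CCL17 5.33-fold and ENSECAG00000031387 4.66-fold. The log2 differences were 2.67 ± 0.29, 2.41 ± 0.46 and 1.95 ± 0.35, which were places 1, 5 and 12 of the tested genes. They came to 2.56, 2.30 and 1.84 relative to the median of all tested genes, and to 2.36, 2.38 and 1.84 without the libraries that stand apart. Separation of all libraries in this direction was seen in 8.5% of tested genes.

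Set against untreated macrophages in place of IL-1ß alone, the 3 genes were also higher with both products. The PRP lysate and ACS libraries are the ones the genes were chosen on, so this too is a description and no separate support. With ACS the log2 differences were 2.55 ± 0.29 for CCL22, 1.72 ± 0.46 for CCL17 and 2.001 ± 0.35 for ENSECAG00000031387, places 1, 13 and 6. With PRP lysate they were 1.86 ± 0.29, 1.504 ± 0.46 and 1.74 ± 0.35, places 7, 24 and 10. All libraries with a product were above all untreated libraries, as in 16.3% of tested genes for ACS and 10.1% for PRP lysate. The nearest approach was in CCL17, where the lowest PRP lysate library was 1.09-fold the highest untreated library.

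Between the blood products only CCL22 was apart in all libraries, a separation seen in 8.97% of tested genes. Mean CCL22 was 1.60-fold higher with ACS than with PRP lysate, with a log2 difference of 0.68, which stayed between 0.60 and 0.73 with single libraries left out. The log2 difference was 0.21 for CCL17 and 0.26 for ENSECAG00000031387. Without PRP lysate replicate 1 these became 0.62 and 0.56, and without PRP lysate replicate 3 they became -0.015 and 0.0045, so they depend on single libraries.

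Dendritic cells are a known source of CCL17 and CCL22, and the summed level of their markers was higher with the blood products, which was mostly CD83. The 9 markers found summed to between 930 and 1275 CPM in the PRP lysate and ACS libraries, and to between 599.9 and 907 CPM in the others. CD83 had a mean of 232 CPM with IL-1ß, 476 CPM with PRP lysate and 497 CPM with ACS. FLT3, the receptor of a dendritic cell growth factor, was lower than with IL-1ß, with means of 4.50, 0.951 and 2.53 CPM in the same order, but stood at 1.65 CPM in untreated macrophages. Of their defining members, CLEC9A was at 0 in all libraries of each condition other than MSC-CM, and CD1C was at 0 in all untreated and all ACS libraries. Macrophage markers summed to between 1527 and 2396 CPM with the blood products and to between 2276 and 3237 CPM elsewhere. The part of cell composition in the levels of the 3 genes was not tested.

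The comparisons without a blood product were tested with limma on all 11628 genes. A gene counts as called at a Benjamini-Hochberg adjusted p of at most 0.05 with a fold change of at least 2, by limma unless another tool is named. IL-1ß alone did not call any of the 3 genes against untreated macrophages, where 0.292% of all tested genes were called. CCL22 was lower with IL-1ß by a log2 difference of -0.81 ± 0.29 (95% interval -1.43 to -0.19), with an unadjusted p of 0.0146 and an adjusted p of 0.258 by limma. The difference was -0.90 ± 0.46 for CCL17 (limma adjusted p = 0.422) and -0.21 ± 0.35 for ENSECAG00000031387 (limma adjusted p = 0.773). The spread is pooled over all conditions, and CCL22 varied less with ACS and PRP lysate (log2 SD 0.10 and 0.15) than untreated and with IL-1ß (0.53 and 0.52). When only the 2 groups compared were fitted, the limma adjusted p of CCL22 was 0.701. With single libraries left out, CCL17 ranged from -1.28 without IL-1ß replicate 3 to -0.45 without untreated replicate 3, and CCL22 from -1.06 without IL-1ß replicate 2 to -0.52 without untreated replicate 3. Libraries of both conditions overlapped in each gene.

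MSC-CM did not call any of the 3 genes either. Against IL-1ß alone, the log2 difference was 0.54 ± 0.29 for CCL22 (95% interval -0.08 to 1.16, limma adjusted p = 0.705). It was -0.01 ± 0.46 for CCL17 (-0.998 to 0.985, limma adjusted p = 0.996) and -0.35 ± 0.35 for ENSECAG00000031387 (-1.11 to 0.42, limma adjusted p = 0.731). This comparison called 0% of all genes, with 651 genes at an unadjusted p of at most 0.05, 0 called by edgeR and 2 by DESeq2. It shares its IL-1ß libraries with the contrasts on which the genes were chosen, as does IL-1ß against untreated macrophages. MSC-CM against untreated macrophages called 0.662% of all genes. It shares its untreated libraries with the comparisons of the blood products against untreated. There CCL22 differed by -0.27 ± 0.29, CCL17 by -0.91 ± 0.46 and ENSECAG00000031387 by -0.56 ± 0.35 on the log2 scale, with limma adjusted p of 0.758, 0.368 and 0.509. CCL17 was at -1.25 without untreated replicate 2 and at -0.45 without untreated replicate 3. Of these 9 values 0 were called by limma, 1 had an unadjusted p of at most 0.05, and 0 were called by edgeR, by DESeq2 or in any other alternative, where the lowest adjusted p was 0.0720. The sign of 3 of them turned when single libraries were left out. CCL17 with MSC-CM against IL-1ß went to 0.37 without IL-1ß replicate 3 and to 0.19 without MSC-CM replicate 3. Without untreated replicate 3, the highest untreated library in each gene, CCL22 with MSC-CM against untreated went to 0.01 and ENSECAG00000031387 with IL-1ß against untreated to 0.09.

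The 3 genes differed in how closely libraries of a condition held together. On the log2(CPM + 1) scale, conditions accounted for 94.5% of the variance of CCL22 over the 15 libraries, 82.9% for CCL17 and 88.7% for ENSECAG00000031387. The pooled SD within conditions was 0.39, 0.63 and 0.46 log2 units. The conditions were those the genes were chosen on, so these shares are a description.

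Within conditions, CCL17 and ENSECAG00000031387 deviated together and CCL22 did not follow them closely. After the condition mean was taken off each library, Pearson's r was 0.82 and Spearman's rho 0.77 between CCL17 and ENSECAG00000031387, with deviations of the same sign in 14 of 15 libraries. The r was 0.70 without PRP lysate replicate 1 and untreated replicate 3, the farthest on the CCL17 axis, and 0.82 without the 3 libraries that stand apart. Between CCL22 and CCL17 r was 0.23, with the same sign in 7 of 15 libraries, and between CCL22 and ENSECAG00000031387 it was 0.34, with 8 of 15. These were -0.090 and 0.11 without PRP lysate replicate 1 and untreated replicate 3, and 0.57 and 0.57 without the 3 libraries that stand apart, so their size depends on which libraries enter. The points are the same libraries in each case and share depth and batch. The deviations of CCL17 had r = 0.78 with the first principal component, and 823 of 11627 genes had an r above 0.8 with it. ENSECAG00000031387 had 9 such genes, among which CCL17 was the 6th, whereas ENSECAG00000031387 was the 535th by likeness to CCL17.

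**Figure D2:**
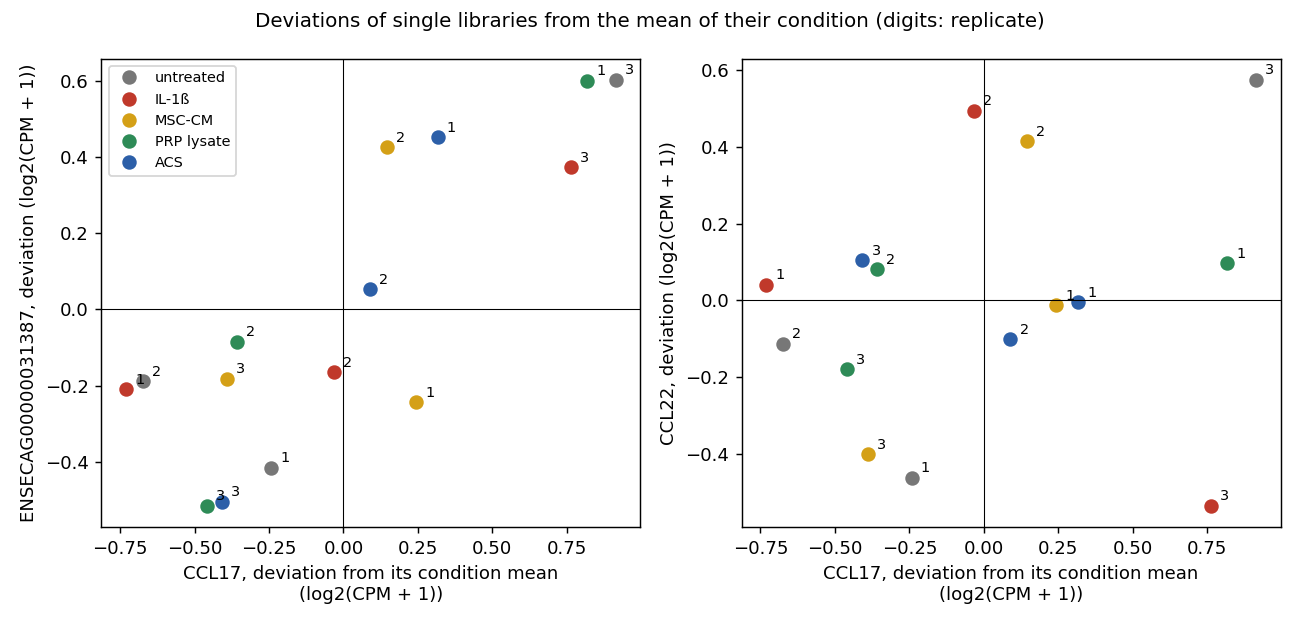
Deviation of each library from the mean of its condition in log2(CPM + 1), for ENSECAG00000031387 (left) and CCL22 (right) against CCL17, with conditions as colours and replicates as digits. On the left 14 of 15 libraries lie in the lower left or upper right quadrant, and on the right 7 of 15.

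IL-1ß replicate 3 shows this divergence of CCL22 most plainly. In this library CCL22 was at 0.34 times the CPM of CCL17, against 1.45 and 1.22 times in its fellow libraries. The ratio was 1.12, 1.23 and 2.01 with ACS, 0.62, 1.38 and 1.23 with PRP lysate, 0.68, 1.17 and 0.62 in untreated macrophages and 1.03, 1.49 and 1.22 with MSC-CM. Its ranges overlapped between conditions. Since CPM does not correct for transcript length, the ratio is read only between libraries.

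High levels with the blood products were not a feature of the whole chromosomal neighbourhood. Within 500 kb on either side 25 other genes were listed, of which 19 were expressed enough to be tested. Only HERPUD1, a gene of endoplasmic reticulum protein quality control 346683 bp before CCL22 (chr3:9952325-9962056), was called by limma, and it fell. HERPUD1 stood at 294, 301 and 189 CPM with IL-1ß, at 127, 89.1 and 104 CPM with PRP lysate and at 103, 109 and 124 CPM with ACS. All libraries with a blood product were below all IL-1ß libraries. It fell by 1.27 ± 0.19 with PRP lysate and by 1.19 ± 0.19 with ACS on the log2 scale, with limma adjusted p of 0.00186 and 0.00575, and both calls were kept in 6 of 6 fits that left out 1 library. In untreated macrophages HERPUD1 was at 121, 114 and 128 CPM, and with IL-1ß it rose by 1.08 ± 0.19 (limma adjusted p = 0.0412). That call was lost in 5 of 6 such fits and held only without IL-1ß replicate 3.

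The remaining 18 tested neighbours changed between -0.81 and 0.76 on the log2 scale with ACS and between -0.58 and 0.73 with PRP lysate, and none was called by limma. DESeq2 also called CCDC102A with ACS, which fell by 1.12 on the log2 scale in that fit (DESeq2 adjusted p = 0.0192) and by 0.81 in limma (adjusted p = 0.0810). The call share over all genes was 2.21% for ACS and 3.09% for PRP lysate, against 1 of 19 in the neighbourhood. These shares depend on single libraries. The 257 genes called with ACS became 102 without ACS replicate 2 and 692 without IL-1ß replicate 1. The 359 called with PRP lysate became 274 without IL-1ß replicate 2 and 469 without PRP lysate replicate 1. CIAPIN1, which overlaps CCL17, was at 102, 123 and 165 CPM with IL-1ß, 159, 142 and 152 CPM with PRP lysate and 147, 143 and 140.2 CPM with ACS. Its log2 differences were 0.25 ± 0.16 (limma adjusted p = 0.461) and 0.17 ± 0.16 (limma adjusted p = 0.464). PLLP, 51577 bp before CCL22 and a gene of myelin membranes, had a mean of 0.283 CPM and was not tested. NLRC5, a regulator of MHC class I genes 219668 bp before CCL22, differed by 0.18 with ACS and 0.20 with PRP lysate and was not called. RSPRY1 was called with ACS (1.02, limma adjusted p = 0.0396) when IL-1ß replicate 1 was left out, which brought the count to 2. MSC-CM called 0 of the 19 genes by limma, edgeR and DESeq2, with 2 at an unadjusted p of at most 0.05.

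**Figure D3:**
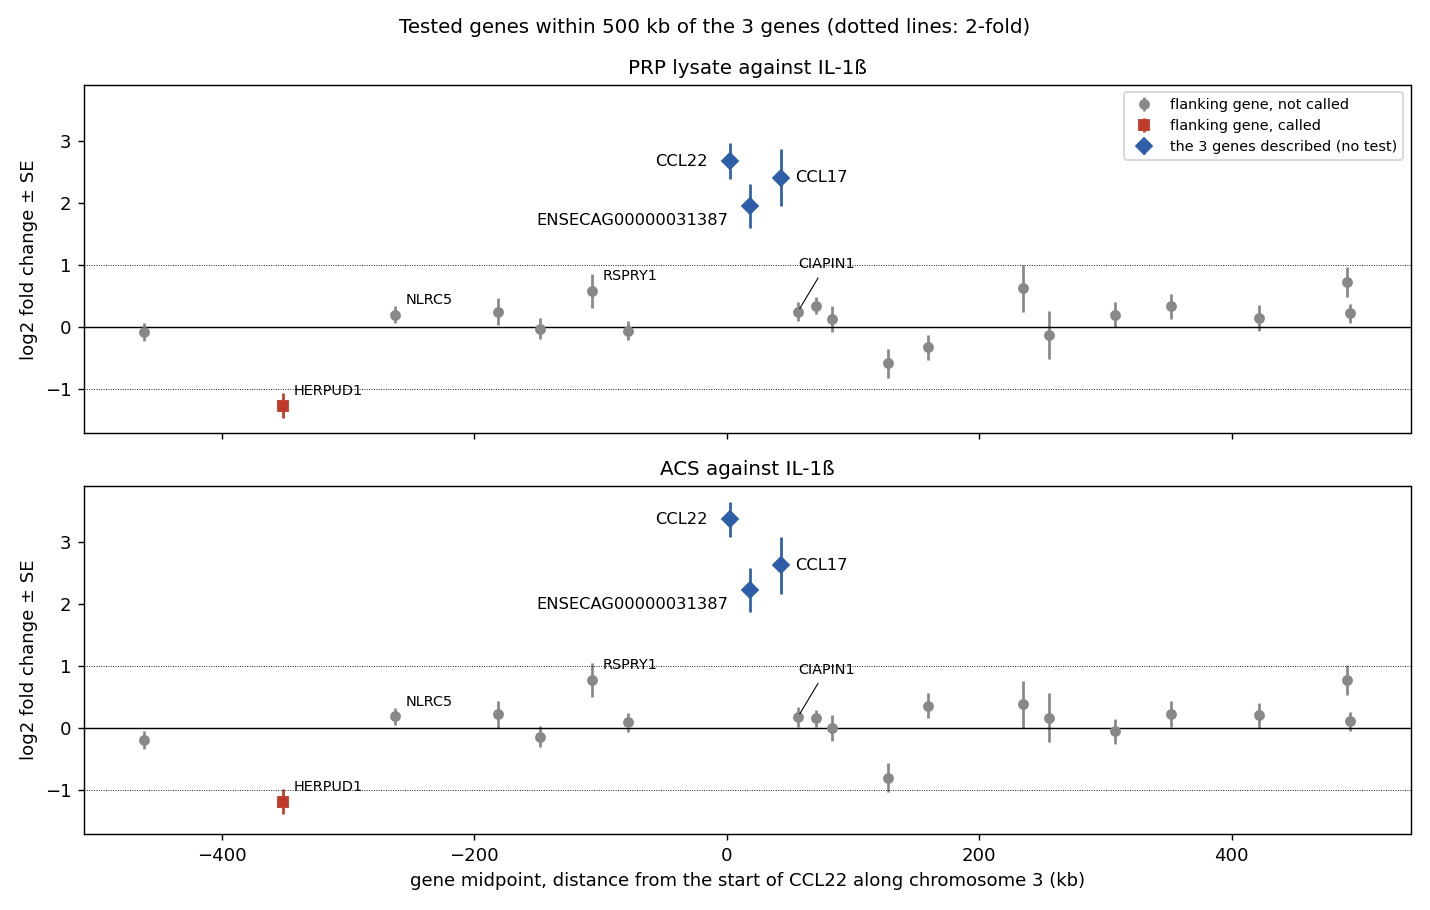
Log2 fold change with its standard error against IL-1ß alone for the 3 genes and the 19 tested neighbours, by distance of the gene's midpoint from the start of CCL22 in kb, for PRP lysate (top) and ACS (bottom). The 3 genes lie between 1.95 and 3.36, HERPUD1 is the only neighbour called by limma, and all other neighbours lie between the lines that mark a 2-fold change.

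Genes for the receptors and processing enzymes of these chemokines, with 6 of 8 listed genes tested, were not called by limma, edgeR or DESeq2 in IL-1ß against untreated macrophages or in any OT against IL-1ß. At an unadjusted p of at most 0.05 there were 2 genes with ACS, 2 with PRP lysate, 1 with MSC-CM and 1 with IL-1ß. CCR4, the receptor of CCL17 and CCL22 on T cells, was at 14.3, 12.4 and 3.25 CPM with IL-1ß, 11.9, 24.6 and 27.1 CPM with PRP lysate and 16.3, 19.9 and 20.7 CPM with ACS. IL-1ß replicate 3 and PRP lysate replicate 1, which stand apart, were the lowest of their conditions. The log2 differences were 1.14 ± 0.41 (limma adjusted p = 0.150) and 1.06 ± 0.41 (limma adjusted p = 0.182). CX3CR1, the fractalkine receptor, was at 1.75, 1.13 and 1.80 CPM with IL-1ß and at 0, 0.550 and 0.493 CPM with PRP lysate, a difference of -0.94 ± 0.26 (limma adjusted p = 0.0631). With ACS it was at 0.136, 0.606 and 1.48 CPM. The shedding proteases ADAM10 and ADAM17 differed by 0.99 ± 0.57 and 0.67 ± 0.40 with ACS and by 0.54 ± 0.57 and 0.41 ± 0.40 with PRP lysate.

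Of the cytokines, receptors and factors known to drive or restrain CCL17 and CCL22 in myeloid cells, 25 of 28 listed genes were tested. PRP lysate raised 4 of them (CSF2, IFNG, IL13 and TNF), ACS raised 3 (IFNG, IL13 and TNF), and neither lowered any. TSLP was also past the threshold with both, but is left out of these counts because of the filter on low values, as given with its levels. The median log2 difference of the 25 genes was 0.21 with PRP lysate and 0.43 with ACS, beside 0.11 and 0.13 over all tested genes. All genes raised were cytokine genes. The list was written with results of these libraries known and was not tested as a set.

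TSLP, an epithelial-type cytokine that acts on dendritic cells, had 0 reads in all 3 IL-1ß libraries. It was at 1.02, 3.08 and 1.76 CPM with PRP lysate and at 4.12, 2.92 and 4.78 CPM with ACS. Against 3 reads in the shallowest IL-1ß library, taken as a floor of 0.104 CPM per library, the means were at least 18.8-fold higher with PRP lysate and at least 38.0-fold higher with ACS. The mean of TSLP over all libraries passed the filter of 1 CPM only through the libraries with a blood product, so its calls follow in part from the filter and no p is given. Untreated libraries had 0.306, 0.364 and 0.511 CPM, and against them the log2 differences were smaller, at 1.03 with PRP lysate and 1.81 with ACS. DESeq2 called TSLP in IL-1ß against untreated macrophages, where limma called 0 and edgeR 1 of the 25 genes.

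IL13, a type 2 cytokine that signals through IL-4 receptor alpha, was at 17.5, 19.9 and 18.5 CPM with IL-1ß, at 50.7, 64.7 and 43.3 CPM with PRP lysate and at 45.3, 50.5 and 46.0 CPM with ACS. It rose by 1.44 ± 0.22 with PRP lysate and 1.30 ± 0.22 with ACS, with limma adjusted p of 0.00166 and 0.00658. IL4 was at 5.56, 6.13 and 6.47 CPM with IL-1ß, 11.04, 9.30 and 9.43 CPM with PRP lysate and 7.39, 9.82 and 9.44 CPM with ACS. Its libraries did not overlap, but its log2 differences of 0.63 ± 0.21 and 0.48 ± 0.21 were not called (limma adjusted p = 0.124 and 0.231). Both are typically made by lymphocytes. T cell markers summed to between 1404 and 1964 CPM with IL-1ß, 1101 and 1965 CPM with PRP lysate and 1072 and 1297 CPM with ACS, and 0 of these 10 genes were called with either product by limma, edgeR or DESeq2 (1 with ACS and 2 with PRP lysate at an unadjusted p of at most 0.05).

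CSF2, the gene of GM-CSF, was at 21.5, 14.3 and 28.4 CPM with IL-1ß and at 60.1, 85.9 and 82.2 CPM with PRP lysate, a rise of 1.82 ± 0.27 (limma adjusted p = 0.00140). With ACS it was at 36.0, 33.8 and 49.4 CPM, a difference of 0.89 ± 0.27 (limma adjusted p = 0.0935). TNF rose by 1.99 ± 0.27 with PRP lysate and 1.39 ± 0.27 with ACS (limma adjusted p = 0.000800 and 0.0147). IFNG, which is known to restrain CCL17 and CCL22 in monocytes, rose by 1.87 ± 0.24 and 1.06 ± 0.24 (limma adjusted p = 0.000539 and 0.0291). Against untreated macrophages TNF and IFNG were called with PRP lysate, at 1.26 and 1.80 (limma adjusted p = 0.0246 and 0.00117), but not with ACS, at 0.66 and 0.99 (limma adjusted p = 0.531 and 0.120). CSF2 was called there with PRP lysate and IL13 with both products. IL4 was called against untreated macrophages with PRP lysate, at 1.04 (limma adjusted p = 0.0194), but not with ACS, at 0.89 (limma adjusted p = 0.120). The call of TNF with ACS was lost without ACS replicate 2, ACS replicate 3 or IL-1ß replicate 2. That of IFNG with ACS held in 1 of 6 fits that left out a library, the one without IL-1ß replicate 1, and was lost with TMM or RLE scaling.

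The transcription factors of the pathway were not called. STAT6, which carries the IL-4 and IL-13 signal, was at 203, 206 and 119 CPM with IL-1ß, 118, 214 and 198 CPM with PRP lysate and 217, 219.8 and 198 CPM with ACS. The difference was 0.00 ± 0.23 with PRP lysate and 0.31 ± 0.23 with ACS. IRF4, a factor of alternative activation, was at 141, 126 and 96.9 CPM with IL-1ß, 233, 191 and 190.0 CPM with PRP lysate and 171, 233 and 302 CPM with ACS. Its libraries with a blood product were all above those with IL-1ß, by 0.76 ± 0.24 and 0.93 ± 0.24, without passing the test (limma adjusted p = 0.0955 and 0.0525). KDM6B, a histone demethylase, differed by 1.53 ± 0.43 with either product, with limma adjusted p of 0.0643 and 0.0756, and was called by DESeq2 with both.

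**Figure D4:**
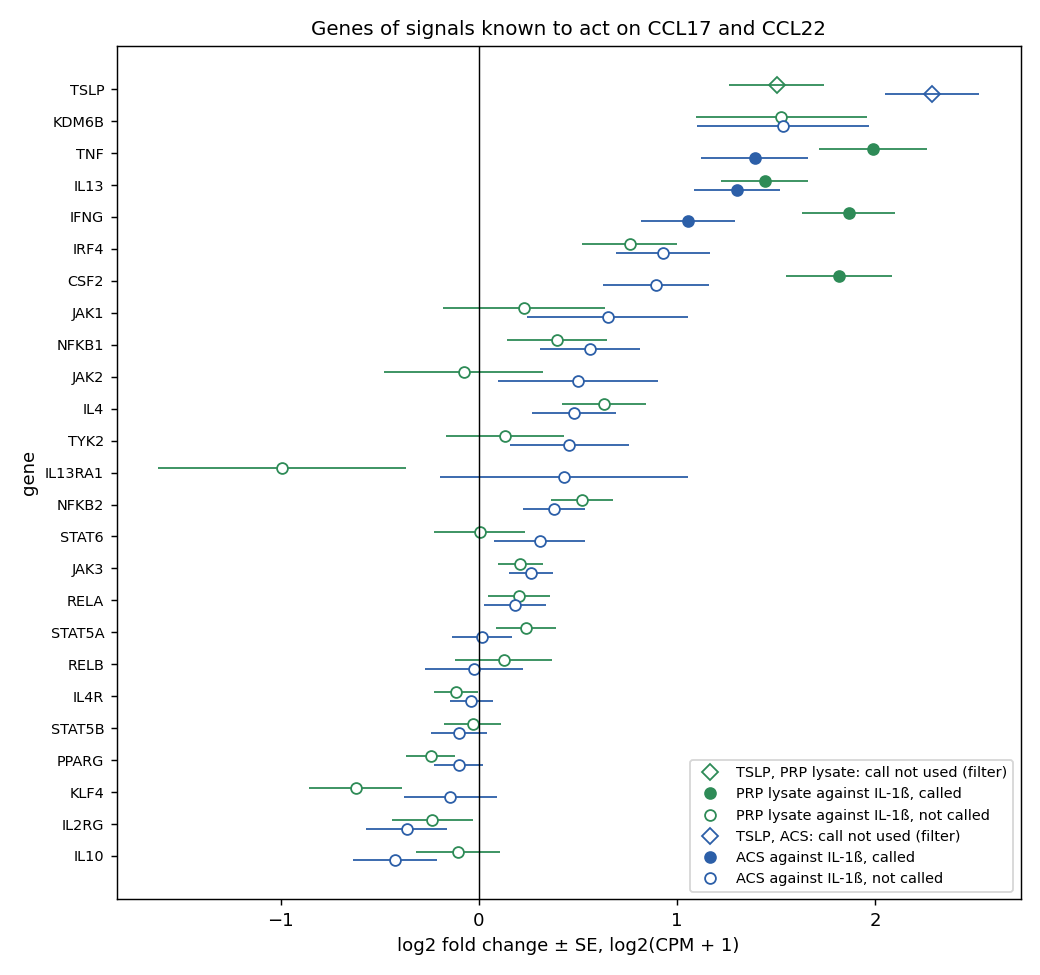
Log2 fold change with its standard error against IL-1ß alone for the 25 tested genes of signals known to act on CCL17 and CCL22, in PRP lysate (green) and ACS (blue), with called genes filled and TSLP, whose call is not used, as diamonds. The called genes TNF, IL13, IFNG and, with PRP lysate, CSF2 lie at 1.06 or above, while the receptor IL4R and the factors STAT6, STAT5A and STAT5B lie near 0.

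Of the other CC chemokines, CCL3 was likewise higher with both products and CCL14 was lower with both, while CCL24 was called lower only with ACS. Of 21 listed, 13 were found and 8 tested, with a median log2 difference of -0.22 with ACS and 0.03 with PRP lysate. CCL3, which attracts monocytes and T cells, rose with both products. It was at 842, 796 and 1158 CPM with IL-1ß, 3216, 3489 and 3358 CPM with PRP lysate and 2628, 2375 and 2204 CPM with ACS, a rise of 1.87 ± 0.21 and 1.38 ± 0.21 (limma adjusted p = 0.000265 and 0.00415). As in CCL17 and CCL22, all its libraries with a blood product were above all others. Against untreated macrophages it was called with PRP lysate, at 1.07, and not with ACS, at 0.59 (limma adjusted p = 0.0157 and 0.397). CCL14 fell by 2.69 ± 0.39 with PRP lysate and fell by 2.002 ± 0.39 with ACS against IL-1ß (limma adjusted p = 0.00119 and 0.0145). Against untreated macrophages CCL14 was called with PRP lysate, at -1.72, and not with ACS, at -1.03 (limma adjusted p = 0.0319 and 0.446). The eotaxin CCL24, a chemokine that IL-4 is known to raise like CCL17, was at 4.81, 5.74 and 10.6 CPM with IL-1ß and at 1.2, 1.11 and 0.752 CPM with ACS. It fell by 1.94 ± 0.41 with ACS (limma adjusted p = 0.0230). With PRP lysate it differed by -1.08 ± 0.41 (limma adjusted p = 0.181). The abundant monocyte attractants CCL2 and CCL8 differed by -0.32 and -0.14 with ACS and by -0.05 and -0.10 with PRP lysate. The ACS call of CCL14 was lost without ACS replicate 2, ACS replicate 3 or IL-1ß replicate 2, and that of CCL24 was kept only without IL-1ß replicate 1. Near-identical copies of CCL3 may share its reads.

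Among 9 tested CXC chemokines ACS called 0 by limma and edgeR and 1 by DESeq2 (CXCL14), with 4 at an unadjusted p of at most 0.05, and PRP lysate called 2 by limma, 1 by edgeR and 3 by DESeq2 (CXCL8, CXCL11 and CXCL13, of which CXCL8 and CXCL13 are named after their values were seen). With PRP lysate CXCL1, a neutrophil attractant, rose by 1.05 ± 0.26 (limma adjusted p = 0.0341), and CXCL11, which is induced by interferons, fell by 1.90 ± 0.39 (limma adjusted p = 0.0129). The CXCL1 call was lost with TMM or RLE scaling, edgeR and DESeq2, and in 4 of 6 fits that left out a library (IL-1ß replicate 2 or 3, PRP lysate replicate 2 or 3). CXCL11 lost its call without IL-1ß replicate 2. With ACS the 2 genes differed by 0.97 ± 0.26 and -1.02 ± 0.39 (limma adjusted p = 0.0624 and 0.180). Against untreated macrophages both genes were called with both products. CXCL1 was higher by 1.53 with PRP lysate and 1.45 with ACS (limma adjusted p = 0.00644 and 0.0293). CXCL11 was lower by 3.27 and 2.40 (limma adjusted p = 0.000667 and 0.0218), and also by 2.23 with MSC-CM against untreated (limma adjusted p = 0.0202).

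Genes known to rise with IL-4 in macrophages moved in both directions, with 14 of 27 listed genes tested. With ACS 2 rose and 2 fell. FN1 (fibronectin) rose by 2.14 ± 0.43 and IL1R2, the decoy receptor of IL-1, by 1.45 ± 0.24 (limma adjusted p = 0.0162 and 0.00575), while CCL24 and the scavenger receptor STAB1 fell. IL1R2 was at 43.7, 37.4 and 31.9 CPM with IL-1ß and at 135, 97.9 and 85.0 CPM with ACS. With PRP lysate 0 rose and 2 fell, STAB1 by 2.66 ± 0.53 and the transglutaminase TGM2 by 1.55 ± 0.18 (limma adjusted p = 0.0103 and 0.000309). MRC1, the mannose receptor and a classic IL-4 target, differed by 0.06 with ACS and -0.81 with PRP lysate (limma adjusted p = 0.941 and 0.430). The FN1 call was lost without ACS replicate 2 or 3. STAB1 fell by 2.18 ± 0.53 with ACS (limma adjusted p = 0.0401), a call kept only without IL-1ß replicate 1. Against untreated macrophages FN1, IL1R2 and STAB1 were not called with ACS (limma adjusted p = 0.305, 0.106 and 0.905), nor was STAB1 with PRP lysate (limma adjusted p = 0.416). CCL24 with ACS and TGM2 with PRP lysate were called there too, at -2.08 and -1.50 (limma adjusted p = 0.0486 and 0.000667). STAB1 had a mean of 19.7 CPM untreated and 58.5 CPM with IL-1ß, and its libraries with either product overlapped the untreated ones. The median of the list was 0.27 with ACS and 0.01 with PRP lysate.

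Of 22 tested genes that rise as dendritic cells mature, limma called the same 2 with both products, and DESeq2 called CD40 with both and LAMP3, which was lower, with PRP lysate. CD40, a receptor for T cell help, was at 79.4, 67.2 and 59.2 CPM with IL-1ß, 158, 190.4 and 156 CPM with PRP lysate and 218, 205 and 171 CPM with ACS. It rose by 1.29 ± 0.18 and 1.52 ± 0.18 (limma adjusted p = 0.00112 and 0.00110), and both calls were kept in 6 of 6 fits that left out a library. CD83 was at 253, 259 and 184 CPM with IL-1ß, 520, 473 and 436 CPM with PRP lysate and 413, 477 and 602 CPM with ACS. Its changes of 1.05 and 1.10 were called by limma on CPM, but fell short of a 2-fold change with TMM or RLE scaling, edgeR or DESeq2, without IL-1ß replicate 3 and without the 3 libraries that stand apart. Against untreated macrophages neither CD40 nor CD83 was called with either product. CCR7, the receptor for lymph node homing, differed by 0.24 with ACS and 0.15 with PRP lysate. The median of the list was 0.19 with ACS and 0.15 with PRP lysate.

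Markers of macrophages that limma called were lower with the blood products. Of 9 tested, PRP lysate lowered 4 and ACS lowered 2 by limma. With PRP lysate edgeR called 4 and DESeq2 5, and with ACS they called 3 and 4, CD14 among the latter with means of 3.46 CPM with IL-1ß and 1.75 CPM with ACS. Neither product raised any by limma. CD163, the haemoglobin scavenger receptor, was at 685, 638 and 365 CPM with IL-1ß, 7.34, 13.3 and 13.4 CPM with PRP lysate and 92.1, 58.6 and 43.2 CPM with ACS, a fall of 5.50 and 3.12 on the log2 scale (limma adjusted p = 9.04e-06 and 0.00149). Against untreated macrophages it fell by 4.28 with PRP lysate (limma adjusted p = 7.48e-05), and with ACS it differed by -1.90 without passing the test (limma adjusted p = 0.0583). AIF1 fell with both products and MARCO with PRP lysate, against IL-1ß alone. Against untreated macrophages AIF1 was not called with PRP lysate (-0.86, limma adjusted p = 0.0476, short of a 2-fold change) or ACS (-0.58, limma adjusted p = 0.397). MARCO with PRP lysate was not called there either (-0.52, limma adjusted p = 0.653). MERTK fell by 2.69 with PRP lysate, and by 2.49 against untreated macrophages (limma adjusted p = 4.40e-05). With ACS against IL-1ß MERTK differed by -0.95 (limma adjusted p = 0.0273), short of a 2-fold change, with all ACS libraries below all IL-1ß libraries, and was called by DESeq2. The ACS call of AIF1 was lost without ACS replicate 2, ACS replicate 3 or IL-1ß replicate 2, and the call of MARCO was kept only without IL-1ß replicate 3. Of 6 tested dendritic cell markers, CD83 rose with both products and FLT3 fell with PRP lysate by 1.52 on the log2 scale, while edgeR and DESeq2 called 0 of them with ACS. PECAM1, listed as an endothelial marker but also made by leukocytes, fell by 2.59 with PRP lysate and by 1.79 with ACS, the latter call being lost without ACS replicate 2, ACS replicate 3 or IL-1ß replicate 2. Against untreated macrophages PECAM1 was called with PRP lysate (-1.83, limma adjusted p = 0.0121) and not with ACS (-1.04, limma adjusted p = 0.334). FLT3 with PRP lysate was not called there (-0.46, limma adjusted p = 0.354). B cell, NK cell and platelet markers had 0 calls with either product against IL-1ß by limma and edgeR, while DESeq2 called MS4A1 and NCR1 with PRP lysate and CD79A with ACS. At an unadjusted p of at most 0.05 there were 2 B cell markers with PRP lysate and 1 with ACS, and 1 NK cell marker with PRP lysate. No fibroblast marker was expressed enough to be tested.

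Over all these lists, 116 of 169 genes were tested. With TSLP counted, ACS called 15 of them, or 12.9%, beside 2.21% of all tested genes, and PRP lysate called 19, or 16.4%, beside 3.09%. The lists hold inflammatory genes by choice, so these shares are not a property of the 3 chemokine genes. The ACS count was 6 without ACS replicate 2 or ACS replicate 3 and 8 without IL-1ß replicate 2. The PRP lysate count was 29 without the libraries that stand apart. IL-1ß alone called 4 against untreated macrophages, namely FLT3 and PPBP upward and CDH5 and CXCL10 downward (PPBP, CDH5 and CXCL10 are named after their values were seen). This count was 0 without any single library of the 2 conditions and 8 without the libraries that stand apart. MSC-CM called 0 by limma, edgeR and DESeq2, with 8 genes at an unadjusted p of at most 0.05.

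Genes whose pattern was most like each of the 3 were found by Pearson correlation of log2(CPM + 1) over the 15 libraries, among 11627 other genes. The libraries share the 5 conditions, so these correlations are a description. CCL22 was most like MMP25, INHBA, PARM1, CD40 and CD69, with r from 0.937 to 0.949. INHBA, the gene of the activin A subunit, was at 248, 192 and 123 CPM with IL-1ß, 456, 685 and 446 CPM with PRP lysate and 834, 880.2 and 1034 CPM with ACS, the same order of the products as for CCL22. PARM1 was likewise lower in all PRP lysate libraries, at 6.50, 5.40 and 5.46 CPM, than in all ACS libraries, at 9.82, 10.7 and 10.3 CPM. ENSECAG00000031387 was the 18th and CCL17 the 34th gene by likeness to CCL22.

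CCL17 was most like TBC1D2, TSPAN33, ENSECAG00000039383, ENSECAG00000031387 and MARCKSL1, with r from 0.954 to 0.962. CCL22 came 26th. ENSECAG00000039383 repeated the high PRP lysate replicate 1 of CCL17, with 48.5, 19.7 and 14.5 CPM, and the high untreated replicate 3, with 7.64, 3.90 and 18.7 CPM. For ENSECAG00000031387 the 5 genes were ENSECAG00000036967, CCL17, MMP25, TBC1D2 and EPOP, with r from 0.929 to 0.961, and CCL22 came 7th. ENSECAG00000036967 was at 20.01 ± 7.21 (SD, n = 3) CPM with IL-1ß, 77.0 ± 16.5 with PRP lysate and 131 ± 27.3 with ACS. All 5 genes of each list were again the top 5 with a pseudocount of 0.1. Without the ACS libraries 0 of 5 remained for CCL22, 1 for CCL17 and 3 for ENSECAG00000031387.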

How the data were processed

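Polyadenylated RNA of 15 libraries, 3 for each of 5 conditions, was analysed from the values the authors deposited as CPM per gene, counts scaled to a common total. Per the methods, the authors trimmed reads at a Phred score of 20 in Partek Flow, removed adapters with cutadapt, mapped them to EquCab3.0 using STAR 2.7.3 and counted them with HTSeq on Ensembl annotation. The smallest step between values in a library gave its whole reads. Of all values below 1000 reads, 100% came out whole within 0.02 reads. Columns were matched to samples by header, with 0 left over.

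Differences are those of log2(CPM + 1), fitted with limma 3.58.1 (intensity trend) in R 4.3.3 on 11628 genes whose mean reached 1 CPM, all conditions in 1 fit, and Benjamini-Hochberg adjustment within each comparison. A call needed an adjusted p of at most 0.05 together with a 2-fold change or more. This scale understates changes of genes with few CPM. The count test on recovered reads was run with edgeR 4.0.16 (13675 genes, 242 called with ACS, 388 with PRP lysate against IL-1ß) and DESeq2 1.42.0 as alternatives. Also tried were no filter, a pseudocount of 0.1, TMM and RLE factors, only the 2 groups compared, a replicate block and leaving out each library. Leaving out 3 libraries that stand apart was added after seeing the data. With 1 library left out, a condition holds 2 and the spread is shared with the other conditions. The limma, edgeR and DESeq2 fits were first tested on simulated counts, for ACS against IL-1ß only. The other steps were not tested in this way.

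The 3 genes, the lists of pathway and cell type marker genes and the tests were chosen with earlier results of these data known. Named genes are the 3 genes, called or nearest neighbours within 500 kb, list genes called with PRP lysate or ACS against IL-1ß (at most 6 per list), CCR4, CX3CR1, ADAM10, ADAM17, IL4, IL13, CSF2, STAT6 and IRF4, and the 5 genes most like each of the 3. Further genes named for contrast (NLRC5, RSPRY1, KDM6B, IL4R, STAT5A, STAT5B, CCL2, CCL8, MRC1, CCR7, CSF1R, CD14) were picked after their values were seen. No gene or protein sequence was used here.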

Additional observations from a re-analysis of the deposited data

How the results depend on the processing

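With PRP lysate or ACS, CCL22, CCL17 and ENSECAG00000031387 kept the direction of their differences from IL-1ß and from untreated macrophages under every alternative run. CCL22 with ACS against IL-1ß ranged from 3.09 to 3.60 on the log2 scale, CCL17 from 2.26 to 3.00 and ENSECAG00000031387 from 1.99 to 2.47. Of the 9 tested differences of these genes 0 were called, and the signs of some of them turned. CCL17 with ACS against PRP lysate, which was not tested, was 0.21 and ranged from -0.015 without PRP lysate replicate 3 to 0.62 without PRP lysate replicate 1. CCL17 with MSC-CM against IL-1ß (-0.01) ranged from -0.37 to 0.37 with single libraries left out, being 0.37 without IL-1ß replicate 3 and 0.19 without MSC-CM replicate 3, and was 0.25 without the 3 libraries that stand apart. CCL22 with MSC-CM against untreated ranged from -0.50 to 0.014, the latter without untreated replicate 3. ENSECAG00000031387 with IL-1ß against untreated ranged from -0.42 to 0.087, the latter also without untreated replicate 3. The cause was not tested.

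Counts of called genes moved more. When only the 2 groups compared were fitted, which leaves fewer libraries to estimate the spread, 0 neighbours were called in any comparison, and 5 list genes were called with ACS, 7 with PRP lysate and 0 with IL-1ß against untreated. Over all genes this fit called 48 with ACS, 56 with PRP lysate and 0 with IL-1ß against untreated, in place of 257, 359 and 34, and DESeq2 called 574, 694 and 173. DESeq2 called 2 neighbours with ACS (HERPUD1 and CCDC102A) and 7 list genes with IL-1ß against untreated. That last count was 0 without a filter, 1 with a pseudocount of 0.1 and 8 without the 3 libraries that stand apart, where PRP lysate called 29 list genes. Leaving out single libraries gave 1 to 2 neighbours with ACS and 0 to 1 with IL-1ß against untreated, and 6 to 21 list genes with ACS, 16 to 27 with PRP lysate and 0 to 0 with IL-1ß against untreated.

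Nothing in the labels ties the replicate numbers to a shared donor or day. Deviations of same-numbered libraries correlated between -0.77 and 0.63, with 11 of 18 pairs above 0.1, and in each comparison fitted at least 1 pair was below 0.1. All 3 pairs of MSC-CM and PRP lysate, which are not compared here, were above it (0.26 to 0.63). With the number as a replicate block, 0 neighbours and 0 list genes were called with IL-1ß against untreated, 13 list genes in place of 19 and 196 genes in all with PRP lysate and 6 with IL-1ß against untreated, and it called none of the 3 genes in IL-1ß against untreated or with MSC-CM. The PRP lysate calls of CXCL1, CXCL11, STAB1, CD83 and MARCO were lost in this fit, and TSLP fell under its filter. ACS carries no replicate numbers in its labels and had no such fit. Its replicates 1 to 3 are numbered here by the order of the samples in the series.

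Each condition has 3 libraries, and untreated and IL-1ß libraries are technical replicates, so differences of less than about 2-fold in CCL17 were within the intervals. Genes under a mean of 1 CPM, PLLP and most fibroblast and platelet markers among them, were not tested.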
